A study of Bos taurus with 8 samples.

Results

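The intercaruncular uterus of cattle was compared with 7 other tissues by RNA-Seq. In ruminants the placenta attaches to raised, gland-free areas of the uterine lining called caruncles. The intercaruncular endometrium between them carries the uterine glands, whose secretion nourishes the early conceptus, over a stroma that responds to ovarian steroid hormones. The uterus was 1 of 8 libraries, chosen by its tissue label, and each tissue had 1 library. The others were nucleated blood cells, whole testes, frontal cortex, mammary/parenchyma (called mammary gland below), and 3 gut organs, namely the ileum, the rumen, a forestomach of fermentation, and the abomasum, the acid-secreting stomach. The labels gave no animal, age, treatment or reproductive stage for any RNA library. The study drew its tissues from a Hereford cow and related animals and lists an adult female for uterus and a fetus for rumen. It also describes its frontal cortex sample as juvenile. The study marks these tissues as having RNA-Seq data, but the library labels do not tie a library to an animal. Tissue and animal therefore cannot be told apart, and every difference below is a value without a replicate check.

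Levels were taken as FPKM, fragments normalized to transcript length and sequencing depth, at 24886 genes, defined as the loci with a transcript identifier among 36801 loci of the table. None of the 26547 identifiers matched a gene symbol (0 matches), so loci are named by their position on the UMD3.1 assembly and their functions are not described. For the same reason the uterine label was not checked against marker genes of endometrial stroma, epithelium, muscle or blood. Fewer cells of a type and less RNA per cell cannot be told apart in such bulk samples. Differences are on the scale of log2(FPKM + 1), where 1 is a doubling of FPKM + 1, and they understate the fold at low genes.

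The uterus expressed 12881 genes (51.8%) at 1 FPKM or more. The other libraries expressed 11202 in nucleated blood cells to 14483 in whole testes. Most of the uterine genes lay at moderate levels, with a median of 11.2 FPKM and quartiles of 4.73 and 25.3 FPKM. Between 100 and 1000 FPKM there were 565 genes, against 550 in mammary gland and 687 to 1210 in the other 6 libraries. In the uterus 70 genes reached 1000 FPKM, against 49 to 166 in the other libraries. The uterus alone reached 1 FPKM at 128 genes, and each other library alone did so at 85 to 1452. In the opposite direction, 46 genes stayed below 1 FPKM in the uterus alone. The depth implied by the values, after the scaling of the authors' software, was 10176000 reads for the uterus and 6071000 to 15611000 over all libraries. On a transcript of 1000 bases, 1 FPKM was then 7.40 reads in the uterus and a count of 0 allowed up to 0.406 FPKM, which covers counting error only.

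The library closest to the uterus in number of differing genes was mammary gland. A gene was counted as different at a gap of at least 1 on the log2 scale, with the higher library at 1 FPKM or more. Against mammary gland 1861 genes (7.48%) were higher in the uterus and 1641 (6.59%) were lower. Against ileum 1969 (7.91%) were higher and 2513 (10.1%) lower, and against abomasum 2407 (9.67%) were higher and 2546 (10.2%) lower. The counts grew for the remaining tissues. Against rumen 2996 (12%) were higher and 2867 (11.5%) lower, and against frontal cortex 3109 (12.5%) were higher and 3415 (13.7%) lower. The strongest imbalances were in opposite directions. Nucleated blood cells had 2860 genes (11.5%) above the uterus and 3871 (15.6%) below it, whereas whole testes had 5711 (22.9%) above and 3198 (12.9%) below. Rescaling every library to the same sum off the mitochondrial genome multiplied the uterine values by 1.44 and moved the rumen counts to 7935 higher and 913 lower, and the abomasum counts to 4052 higher and 1672 lower. It also turned the balance for ileum, to 3458 higher and 1964 lower, and for frontal cortex, to 4249 higher and 2938 lower.

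**Figure D1:**
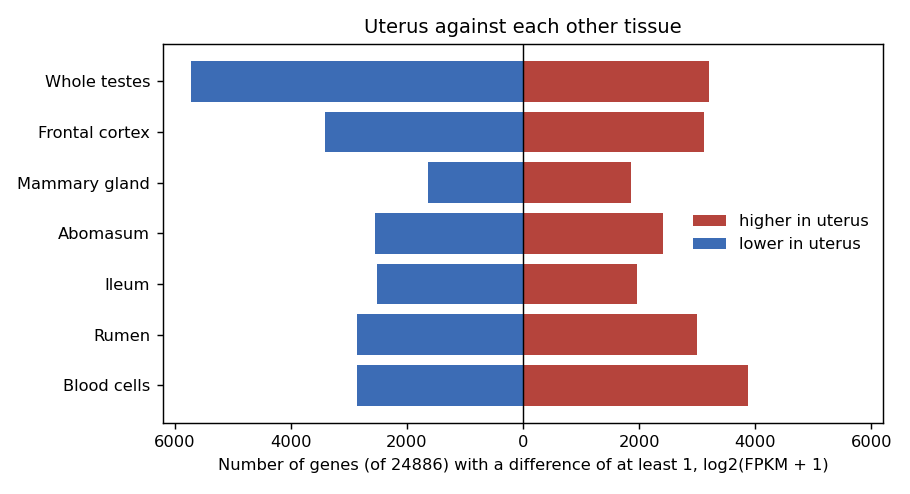
Number of the 24886 genes that were higher (red, to the right) or lower (blue, to the left) in uterus than in each other library by at least 1 on log2(FPKM + 1). Each tissue is 1 library. Mammary gland has the shortest bars, with 1861 and 1641 genes, and whole testes the longest blue bar, with 5711.

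Genes whose level in the uterus stood above every other tissue were few. They numbered 339 (1.36% of genes), which had 1 FPKM or more in the uterus and a gap of at least 1 on the log2 scale to the highest of the 7 other libraries. The same rule gave 197 genes in mammary gland, 245 in ileum, 363 in abomasum and 589 in rumen. It gave 872 in nucleated blood cells, 1344 in frontal cortex and 3166 in whole testes. The 339 genes had a median of 26.6 FPKM in the uterus, and 56 of them were at 100 FPKM or more. Their median in the other libraries ran from 0.0888 FPKM in nucleated blood cells to 1.75 in mammary gland. The gap to the next tissue was 1.75 at the median, at least 2 in 141 genes, at least 3 in 63 and at least 4 in 30. At the edge of the rule, the last gene inside had a gap of 1.0009 and the first outside one of 0.9949. With the same-sum scaling 544 genes met the rule.

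The next tissue varied among these genes. It was whole testes for 65, mammary gland for 64, frontal cortex for 59 and ileum for 55. It was abomasum for 30, rumen for 19 and nucleated blood cells for 11. The remaining 36 were listed at 0 in all 7 other libraries.

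**Figure D2:**
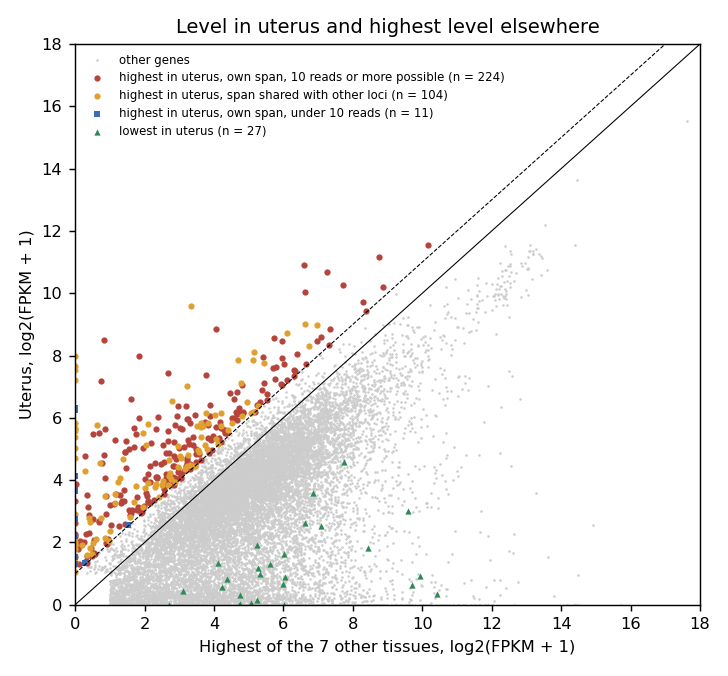
Level in uterus (vertical axis) against the highest level among the 7 other libraries (horizontal axis), both as log2(FPKM + 1), with 1 point per gene. The solid line marks equal levels and the dashed line a gap of 1. The 339 genes highest in uterus, coloured by span and read number, lie above the dashed line, and 36 of them lie at 0 on the horizontal axis.

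Ranked by the gap alone, the top of the list mixed well-covered loci with loci of few reads or of hidden length. Of the 12 first loci, 8 were listed at 0 in every other library and 7 carried a span that the table also gives to another locus. The first, ENSBTAT00000059773 at chr7:4362486-4447524, had 251 FPKM in the uterus and was listed at 0 elsewhere. The second, ENSBTAT00000059437 at chr18:53325733-53380085, had 203 FPKM and was also listed at 0 elsewhere. Both positions are spans shared with another locus, so the length of their own transcript is not given. Of the other 5 on shared spans, 4 were listed at 0 elsewhere with 50.2 to 184 FPKM in the uterus. The fifth, at chrX:134046071-134157066, had 770 FPKM in the uterus, 9.18 in frontal cortex, 6.76 in rumen, 0 in whole testes and 0.824 to 1.70 in the other 4. In the uterus library 1 read was worth 472 FPKM on a transcript of 100 bases, 18.3 FPKM on 150 bases and 1.15 FPKM on 300 bases. A locus of hidden short length could therefore reach such a value on very few reads.

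The short loci with a span of their own showed this limit directly. Among the 36 genes listed at 0 elsewhere, 19 had a shared span and 17 a span of their own. Of the 17, 7 spanned fewer than 300 bases, and their values corresponded to 0.958 to 1.97 reads. The locus at chr13:38990410-38990528, of 119 bases, had 78.5 FPKM in the uterus, which is 0.988 read. The locus at chr10:69940619-69940750, of 132 bases, had 75.7 FPKM, which is 1.97 reads. Counts of 1 and 2 have exact Poisson 95% intervals of 0.0253 to 5.57 and 0.242 to 7.22 reads, for counting error only. At the first locus a count of 0 in the other libraries allowed up to 155 to 399 FPKM, which is more than the uterine value. At these 7 loci a difference from the other tissues was not detectable at this depth.

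Longer loci listed at 0 elsewhere rested on more reads. Another 8 of the 17 spanned at least 1000 bases, had 1.46 to 9.002 FPKM, and could hold 18.5 to 1751 reads if the transcript filled the whole span. Those numbers are upper values, because spans include introns. Among all 235 highest genes with a span of their own, 224 could hold at least 10 reads on that measure and 11 could not.

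**Figure D3:**
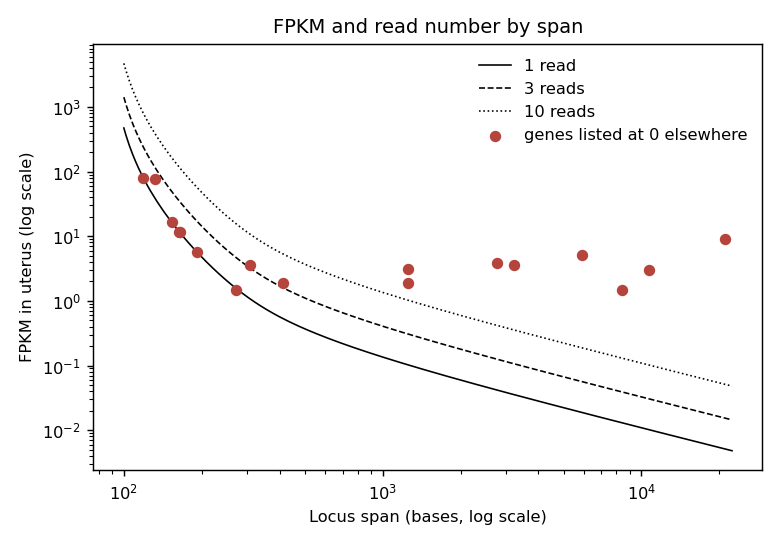
FPKM in uterus against locus span in bases, both on log scales, for the 17 genes highest in uterus that had a span of their own and were listed at 0 in the 7 other libraries (red points). The lines give the FPKM that 1, 3 and 10 reads are worth at each span. Of the 7 loci under 300 bases, 6 lie on the line of 1 read and 1, of 1.97 reads, between the lines of 1 and 3 reads.

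Leaving these loci aside, the uterus still had genes far above every other tissue. From the genes with a span of their own, room for 10 reads and a value above 0 in at least 1 other library, 15 with the widest gaps were taken, a list chosen after values were seen. They had 26.6 to 1913 FPKM in the uterus and gaps of 3.97 to 7.64. No other library exceeded 94.9 FPKM at any of them. The next tissue was frontal cortex for 4, whole testes and mammary gland for 3 each, ileum and rumen for 2 each and abomasum for 1, and it was nucleated blood cells for none (0).

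The widest gap was at chr22:53432383-53437016, a locus of 4634 bases. It had 357 FPKM in the uterus, 0.795 in frontal cortex, 0.552 in ileum, 0.0560 in whole testes, 0.0525 in nucleated blood cells, 0.0457 in abomasum and 0 in mammary gland and rumen. The gap of 7.64 is 200-fold on the scale of FPKM + 1, and all 7 other tissues were below 1 FPKM. The locus at chr13:76653503-76654870, of 1368 bases, had 145 FPKM in the uterus. Elsewhere it had 0.661 in abomasum, 0.635 in rumen, 0.277 in frontal cortex, 0.188 in nucleated blood cells, 0.0869 in ileum, 0.0622 in whole testes and 0 in mammary gland. All 7 other libraries were below 1 FPKM here as well, and the gap was 6.45. The locus at chr6:106061463-106065759 had 251 FPKM in the uterus, 2.57 in frontal cortex, 2.47 in rumen, 2.19 in ileum, 1.21 in mammary gland, 0.533 in nucleated blood cells, 0.218 in whole testes and 0.153 in abomasum. Here the brain, the rumen and the ileum were level with each other and far below the uterus.

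At the next 4 loci described, between 1 and 5 other tissues were above 1 FPKM. The locus at chr23:31066813-31073665 had 95.9 FPKM in the uterus and 2.02 in whole testes, with at most 0.248 in the other 6. At chr3:111519878-111541326 the uterus had 174 FPKM, rumen 5.40 and whole testes 2.72, and the other 5 were at most 0.915. The locus at chr15:52562187-52583867 had 466 FPKM in the uterus, 15.7 in mammary gland, 2.94 in abomasum, 1.61 in rumen, 1.30 in ileum, 1.08 in frontal cortex, 0.333 in whole testes and 0.138 in nucleated blood cells. Mammary gland was again second at the most abundant locus of the 15. That locus, at chr24:58710084-58722719, had 1913 FPKM in the uterus, 94.9 in mammary gland, 37.9 in ileum, 11.8 in frontal cortex, 3.02 in abomasum, 0.740 in nucleated blood cells, 0.686 in rumen and 0 in whole testes. Its gap was 4.32, or 19.9-fold.

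Some loci were close to silent outside the uterus. The locus at chrX:50950717-50973398 had 44.1 FPKM in the uterus, 0.429 in frontal cortex and 0.266 in ileum, and was listed at 0 in the other 5 libraries. The locus at chr15:83472219-83501632 had 26.6 FPKM, with 0.215 in frontal cortex, 0.0827 in nucleated blood cells and 0 in the other 5. At chr11:78262331-78274248 the uterus had 44.9 FPKM and the highest other library, whole testes, 0.623. These loci were 22.7-fold to 31.6-fold above the next tissue on the scale of FPKM + 1.

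**Figure D4:**
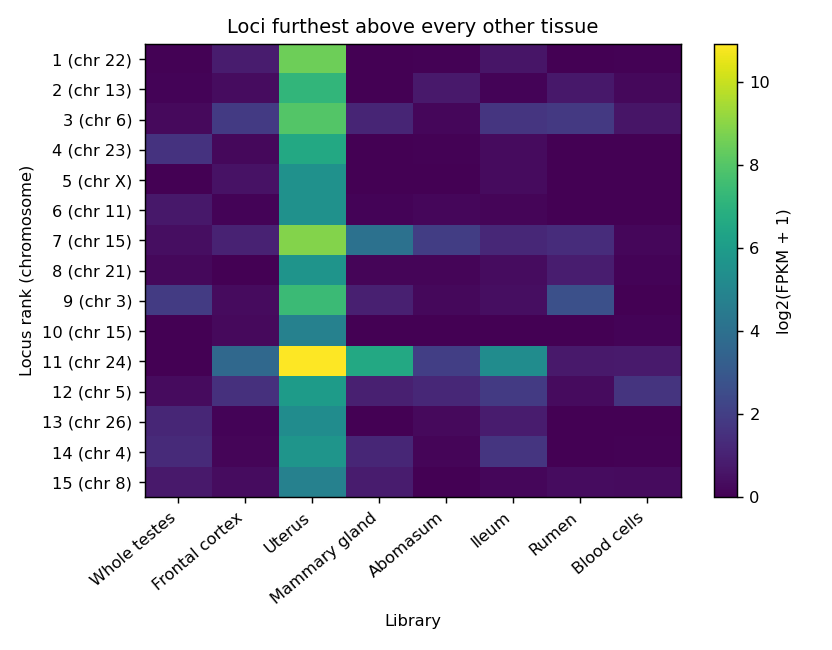
Levels as log2(FPKM + 1) in the 8 libraries (columns) at the 15 loci with a span of their own, room for at least 10 reads and the widest gaps to the next tissue (rows, with rank and chromosome). The uterus column is bright in every row, and the second brightest cells are in mammary gland and ileum at the chromosome 24 locus, with 94.9 and 37.9 FPKM.

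The 10 most abundant of the highest genes had 691 to 3017 FPKM in the uterus and varied widely elsewhere. The locus at chr5:95456252-95461634 had 3017 FPKM in the uterus, 1149 in mammary gland, 1056 in whole testes, 585 in rumen, 581 in ileum, 88.4 in abomasum, 68.1 in frontal cortex and 3.72 in nucleated blood cells. The locus at chr2:7317290-7357057 had 2293 FPKM, 430 in ileum as the next tissue and 0.590 in nucleated blood cells. The locus at chr4:11624214-11661869 had 1653 FPKM, with 60.3 to 152 in whole testes, mammary gland, abomasum, ileum and rumen, 8.67 in frontal cortex and 0.427 in nucleated blood cells. In each of these 3 frontal cortex and nucleated blood cells were the lowest. The locus at chr19:37088239-37106186 had 1233 FPKM in the uterus, 209 in ileum, 6.04 in frontal cortex and 0.330 in nucleated blood cells. Of the 10 most abundant, 8 were below 1 FPKM in nucleated blood cells, as were 256 of all 339 (75.5%), whose rule itself requires blood to be below the uterus, and 2713 (21.1%) of the 12881 genes expressed in the uterus. The loci on chromosome 24 and at chrX:134046071-134157066, described above, were among the 10 and were low or listed at 0 in most other tissues. At chr20:10389602-10399774 the levels were more even, with 1056 FPKM in the uterus and 38.6 to 97.5 FPKM in the 7 others, including 55.0 in nucleated blood cells. Together the 339 genes held 6.92% of the summed FPKM of the uterus off the mitochondrial genome.

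The genes with the highest FPKM in the uterus were for the most part not particular to it. Of the 10 first, only the locus at chr5:95456252-95461634 was among the 339. A mitochondrial locus came first, with 47612 FPKM in the uterus and 100128 to 200924 in 5 other libraries. It was listed at 0, as too much data for an estimate, in frontal cortex and rumen. The locus at chr19:49329691-49337996 followed with 12580 FPKM in the uterus, below 22262 in nucleated blood cells, 16344 in abomasum and 13006 in ileum, and above 591 to 4049 in the other 4. The locus at chr21:71453612-71475799, whose span 3 loci share, had 2606 FPKM in the uterus, 5907 in abomasum, 4720 in ileum, 67.1 in mammary gland, 407 in nucleated blood cells and 7.50 to 11.7 in the other 3. The uterus thus ranked behind both abomasum and ileum there. The remaining 6 of the 10 had 2625 to 4634 FPKM in the uterus, and each was higher in at least 1 other library.

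Genes lowest in the uterus were rarer still. They numbered 27 (0.108% of genes), with every other library at 1 FPKM or more and the uterus at least 1 below the lowest of them. The same rule gave 3 genes in ileum, 12 in mammary gland, 40 in abomasum and 86 in rumen, and 281 to 964 in whole testes, frontal cortex and nucleated blood cells. The 27 genes had a median of 0.871 FPKM in the uterus and of 9.37 to 19.6 FPKM in each other library. In the uterus 16 were below 1 FPKM and 3 were listed at 0. The gap was −1.22 at the median, with the last gene inside the rule at −1.0012 and the first outside at −0.963. The count depended on single libraries, and was 41 without whole testes, 42 without rumen, 44 without frontal cortex, 46 without nucleated blood cells and 50 without mammary gland. With the same-sum scaling it was 13.

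Only 2 of the 27 had a gap of 2 or more with the pseudocount of 1. With a pseudocount of 0.1 others passed 2 as well, such as chr25:26812237-26817727 at −2.64. The lowest of the 27 was at chr3:16812243-16816588, a locus that names 2 transcripts. It had 0.270 FPKM in the uterus, 8.75 in ileum, 8.81 in abomasum, 13.9 in rumen, 17.9 in whole testes, 32.7 in nucleated blood cells, 146 in mammary gland and 1370 in frontal cortex. The brain stood far above all others and the uterus 2.94 below the next lowest tissue. The second, ENSBTAT00000065038 at chr13:75316423-75318650, was listed at 0 in the uterus and had 5.23 FPKM in nucleated blood cells, 8.08 in ileum, 15.04 in abomasum, 21.1 in frontal cortex, 22.9 in rumen, 48.0 in whole testes and 64.0 in mammary gland. On 1000 bases of transcript a count of 0 in the uterus allowed 0.406 FPKM, well below the lowest of these.

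Further down, other tissues were very unequal at the genes that were low in the uterus. The locus at chr16:771153-781509 had 0.570 FPKM in the uterus, 3.20 in rumen as the next lowest and 829 in mammary gland. The locus at chr6:61796005-61807733 had 0.878 FPKM in the uterus, 3.89 in nucleated blood cells and 982 in frontal cortex. With the same-sum scaling the gaps shrank from −1.42 to −0.64 at the first and from −1.38 to −0.95 at the second, so that neither met the rule. The locus at chr28:419154-421910, which names 2 transcripts, was more even, with 2.10 FPKM in the uterus, 8.68 in nucleated blood cells and 16.9 to 63.7 in the other 6. The loci at chr12:88638410-88669181, chr25:26812237-26817727 and chr29:50285049-50287648 had 0.253 to 0.987 FPKM in the uterus, and the lowest other library at each had 2.35 to 6.69.

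Set against the median of the other tissues rather than the highest or lowest, more genes were above than below. The uterus was at least 1 above that median in 2176 genes (8.74%) and at least 1 below it in 1171 (4.71%). The same rule gave more above than below in 6 of the 7 other libraries, with 1753 and 923 in mammary gland, 2344 and 1203 in abomasum, 2352 and 523 in ileum, 2534 and 1814 in rumen, 3611 and 2672 in frontal cortex and 5769 and 2592 in whole testes. Nucleated blood cells had 2504 above and 3004 below. The uterine split, 65.0% above, moved to 3713 above and 663 below, 84.8% above, when libraries were brought to the same sum, and stayed at 2238 above and 1154 below with median-ratio scaling. Over genes expressed in the uterus, a choice that itself raises the value, the median difference was 0.10 as deposited and 0.55 with the same-sum scaling. Of the 2176, the uterus was the top tissue in 897 (41.2%). In the others a second tissue was higher still, which was whole testes in 374, frontal cortex in 342, abomasum in 164, mammary gland in 129, rumen in 113, ileum in 92 and nucleated blood cells in 65.

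Gene spans were compared next, with introns included. Among genes with a span of their own, the median was 21449 bases for the highest genes, 22096 for all genes expressed in the uterus and 14665 for the 21 lowest genes with such a span. The highest and the expressed genes thus had nearly equal medians. The ends of the distribution differed more. Of 1246 genes spanning at least 100000 bases and expressed in any tissue, 36 (2.89%) were highest in the uterus, against 13 of 1178 (1.10%) spanning 300 to 2999 bases and 1.71% to 2.26% in the classes between. Under 300 bases it was 7 of 62 (11.3%), the loci of about 1 to 2 reads described above. For genes above the median of the others the share was 17.2% in the longest class, 10.2% at 300 to 2999 bases and 19.4% (12 of 62) under 300 bases.

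Highest genes were spread over the genome and were denser on some chromosomes. Over all 17484 genes expressed in any tissue, 1.94% were highest in the uterus. On chromosome 15 it was 22 of 541 (4.07%), on chromosome 4 it was 23 of 593 (3.88%) and on chromosome 20 it was 9 of 262 (3.44%). Near neighbours were high more often than other genes, in counts that include genes on shared spans. The nearest gene within 100 kb that shared no identifier was itself highest in 30 of 260 cases (11.5%), against 233 of 13854 (1.68%) for all genes. It was above the median of the others in 80 of the 260 (30.8%), against 11.1% for all genes. Next to genes below the median, the nearest gene was below the median in 13.8%, against 6.93% for all genes.

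Clusters were formed by linking highest genes that lay within 100 kb of one another. With at least 3 genes required there were 5 clusters, of which 3 held 3 different spans, and there were 0 clusters of lowest genes. The number rose to 10 without frontal cortex and to 8 without ileum, and was 1 with spans of their own alone. On chromosome 18, 3 neighbouring loci lay within 25398 bases. The locus at chr18:57338704-57343795 had 56.7 FPKM in the uterus and 8.84 in whole testes as the next tissue. At chr18:57345387-57350243 the uterus had 2.198 FPKM and mammary gland 0.450, with 0 in the other 6. At chr18:57359134-57364101 it had 17.4 FPKM, with 3.29 in whole testes and at most 0.566 elsewhere. Whole testes was thus second at the first and the last of these loci.

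The cluster on chromosome 2 ran over 67348 bases. The locus at chr2:20774190-20797704, on a shared span, had 31.1 FPKM in the uterus, with 13.01 in ileum as the next tissue and 0 in nucleated blood cells. The locus at chr2:20824235-20825910 had 20.7 FPKM in the uterus, 6.02 in whole testes and 5.59 in mammary gland. The locus at chr2:20828842-20841537, a span shared by 6 loci, had 22.2 FPKM in the uterus and at most 0.637 elsewhere. On chromosome 15, 3 of 4 genes between 81869684 and 81997160 were highest in the uterus, with 9.997, 15.96 and 30.3 FPKM. The next tissue for them was nucleated blood cells at 2.45 and at 1.45 FPKM and rumen at 14.5 FPKM. The fourth gene there was listed at 0 in the uterus and shared the span of the second. The other clusters were less sure. On chromosome 11 the 3 genes of chr11:101247082-101316726 had 1 span and 1 identifier, with 52.8, 70.9 and 278 FPKM in the uterus. On chromosome 26 there were 3 highest genes on 2 spans between 45844167 and 46518637, with 2.74, 44.7 and 18.7 FPKM, and no other library exceeded 2.90 FPKM at these 3. A further gene on the second of these spans had the opposite pattern, with 44.7 FPKM in whole testes and 0.472 in the uterus.

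Fixed windows of 1 Mb, added after the data had been seen, gave a wider view. Of 1050 windows with at least 6 genes expressed in any tissue, 15 had 50% or more of these genes above the median of the other tissues and 2 had 50% or more below it. With the same-sum scaling 1 of these 2, from 2 to 3 Mb on chromosome 20, went from 3 to 2 of 6 genes below. Over all windows the median share above was 11.1%, and 287 windows had none above. The window from 69 to 70 Mb on chromosome 4 had the highest share, with 8 of 10, and with the same-sum scaling it had 10 of 10. Of the 8, 5 lay on shared spans, 3 of them on chr4:69357124-69389937, so their read numbers are not known. The first 3 expressed loci in it were neighbours. The locus at chr4:69305035-69315929, a span that 3 loci share, had 56.7 FPKM in the uterus, 13.1 in whole testes and at most 0.474 in the other 6. The locus at chr4:69316982-69327210 had 49.97 FPKM in the uterus, 2.24 in ileum, 1.48 in whole testes and 1.25 in mammary gland, with at most 0.120 in the other 4. The locus at chr4:69327760-69334928 had 23.6 FPKM in the uterus, 17.998 in ileum and 14.7 in mammary gland. The level in the uterus was lower at the third of these neighbours than at the first, while that in ileum was higher. At chr4:69344643-69356273, a span of 2 loci, the uterus at 24.3 FPKM and ileum at 23.6 were level. Nucleated blood cells had at most 0.0971 FPKM at all 4.

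The window from 20 to 21 Mb on chromosome 2 held the cluster described above and had 4 of 6 genes above the median. On chromosome 19, the window from 38 to 39 Mb had 9 of 17 genes above the median, but the uterus was the top tissue at only 1 of the 17. There the median was 22.2 FPKM in ileum, 17.3 in the uterus and at most 4.40 in the other 6.

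On chromosome 23, from 19 to 20 Mb, 6 of 9 genes were above the median and the uterus was the top tissue at 4. The locus at chr23:19386347-19398196 had 83.8 FPKM in the uterus and 0.684 to 13.9 in the 7 others. The locus at chr23:19369192-19384102 had 58.0 FPKM in the uterus and 0.939 to 12.3 elsewhere. At chr23:19435245-19714060, a shared span, frontal cortex at 74.6 FPKM was above the uterus at 22.7 FPKM, and the other 6 had at most 8.94. The genes of this window were thus not all highest in the same tissue. The windows from 56 to 57 Mb on chromosome 15 and from 11 to 12 Mb on chromosome 4 had 4 of 6 and 5 of 8 genes above the median.

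By share, the window with most genes low in the uterus was on chromosome 16, from 5 to 6 Mb, where 4 of 7 were below the median. The window on chromosome 27, from 5 to 6 Mb, had 5 of 12 below the median. The locus at chr16:5487045-5574589 had 1.30 FPKM in the uterus, 81.3 in ileum, 23.5 in abomasum and 14.7 in mammary gland. Another 3 loci of that window share the span chr16:5600155-6172730 and had 0 to 1.35 FPKM in the uterus. In abomasum the same 3 had 8.30 to 99.7 FPKM, and in ileum 14.7 to 71.4. Frontal cortex and nucleated blood cells were also low at all 4 loci, at no more than 1.74 FPKM.

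**Figure D5:**
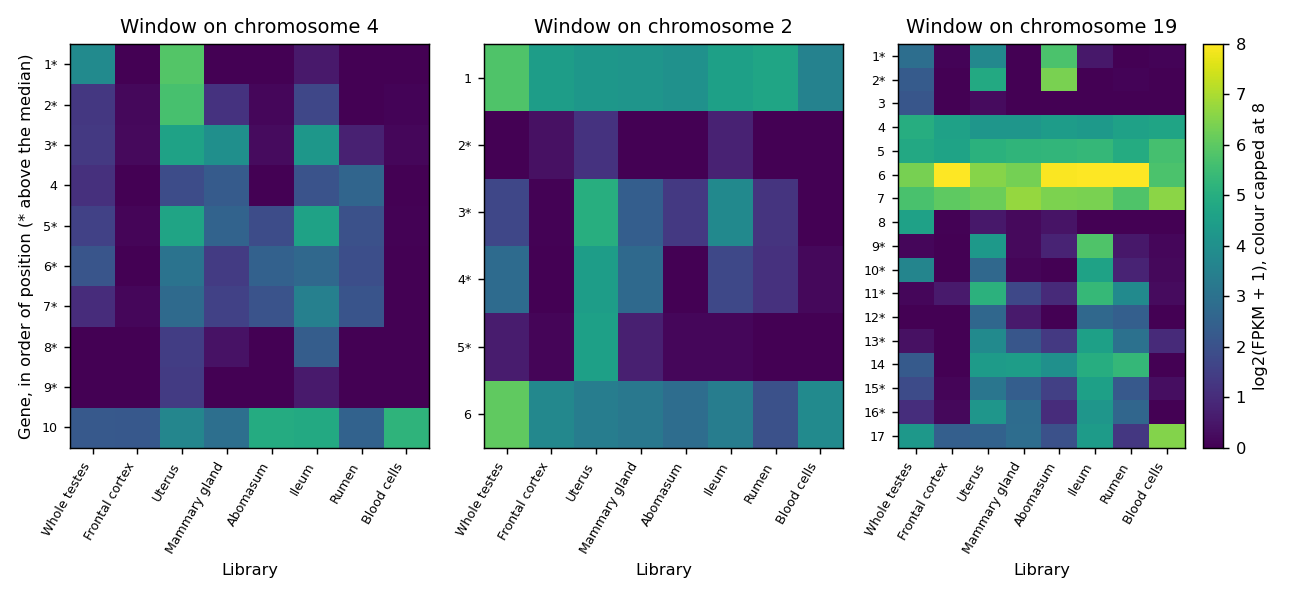
Levels as log2(FPKM + 1) of the expressed genes, in order of position (rows), in the 8 libraries (columns), for the described 1-Mb windows on chromosomes 4, 2 and 19, with the colour capped at 8. Rows with an asterisk are above the median of the other tissues by at least 1 in uterus. It is 8 of 10 rows on chromosome 4, 4 of 6 on chromosome 2 and 9 of 17 on chromosome 19, where the ileum column is also bright.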

How the data were processed

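RNA-Seq reads of 8 cattle tissues, 1 library each, were made by the authors from a kit that does not keep strand, and aligned by them with TopHat2 version 2.0.13 to UMD3.1. Levels were estimated with Cufflinks at default settings. The deposited table holds FPKM per locus in pairs of tissues, which the authors' software scales between libraries. FPKM did not differ between pairs at any locus (0 differed). Its columns of log2 fold changes, test statistics, p-values and q-values, computed by the authors, were not used.

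Library names matched the tissue labels. A gene was a locus with an identifier. Levels were compared as log2(FPKM + 1) with a pseudocount of 1, a minimum of 1 FPKM and a gap of at least 1. With a single library for a tissue, no test was possible. The identifiers of 1659 genes stood at more than 1 locus, and 2093 loci named several transcripts, so overlapping genes, antisense genes and near-identical copies are uncertain. A total of 7618 genes (30.6%) shared their span with another locus.

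Read numbers were recovered from 43 uterine loci of 88 to 130 bases, with a fragment length of 200 bases (SD 80) and a lower limit of 87 bases. The depth of each library was fitted so that at least 95% of the values used lay within 0.03 of a whole read. The share reached, 97.7% in the uterus and 96.4% to 100% elsewhere, is therefore no check on the depth. The FPKM steps follow transcript length, so reads at longer loci are upper values.

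Loci named were the 12 highest, the 8 lowest and the 10 most abundant by rule, leaving out repeated identifiers, and the genes of the clusters, with identifiers for the leading loci only. The members, lists and thresholds were chosen with earlier results of these data known. Supported and abundant high loci, windows and neighbours were added after values were seen. The code of the calls was run on simulated data with planted shifts far above the simulated noise. That run does not show how sure the calls in these data are. Alternatives covered pseudocount, scaling, minimum level, gap, linking distance, identifiers, all loci, and each library left out. Python 3.11.15, pandas 2.3.3, numpy 2.4.6 and scipy 1.17.1 were used.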

Additional observations from a re-analysis of the deposited data

Results flagged for a closer look

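Loci without a transcript identifier, which entered none of the comparisons above, also held signal that was highest in the uterus. Of 11915 such loci, 276 met the rule for highest genes, 217 of them with a span of their own and at least 3 reads in the uterus, and 189 with at least 10 reads. The rule was met by 71 such loci in mammary gland, 117 in ileum, 693 in nucleated blood cells, 895 in rumen, 1137 in frontal cortex, 1781 in abomasum and 3917 in whole testes, so the uterine number was among the lower ones. At chr13:60886775-60890703, of 3929 bases, the uterus had 24.8 FPKM and the 7 other libraries were listed at 0. At chr14:23765838-23771682 the uterus had 20.2 FPKM and the next tissue, frontal cortex, 0.296. A second locus on that chromosome, at chr14:23711079-23717296, had 14.9 FPKM in the uterus and at most 0.102 elsewhere. At chr4:77705726-77706467 the uterus had 13.5 FPKM and at chr7:52513362-52519084 it had 12.2 FPKM, and both were listed at 0 in all other libraries. What these loci encode was not tested, and read numbers assume that the transcript fills the span.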

How the results depend on the processing

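No paired analysis was possible because there was a single library for every tissue, and no test was made. Of 185 alternative values of counts and spans, 84 of them pairwise counts, 151 moved by at most 1.5 times and 34 by more. Among the pairwise counts alone it was 79 and 5. The 185 include a setting without the minimum of 1 FPKM, which could move no value. A gap of 1 with a pseudocount of 1 already requires 1 FPKM. Of 105 values of named loci 76 stayed close, 29 moved and 0 changed sign. Loci in both the ranked and the supported list were counted for each. Those listed at 0 elsewhere could not change sign. The cause of the moves was not tested beyond what each setting removes or adds. Highest genes numbered 544 with the same-sum scaling, 615 over all loci, 141 with a gap of 2, 224 with a span of their own and room for 10 reads, and 354 to 491 with 1 library left out. Of the 544, 339 were the genes of the main list, and with median-ratio scaling 332 of 342 were. Lowest genes numbered 45 with a pseudocount of 0.1, 13 with the same-sum scaling, 11 with a minimum of 5 FPKM, 2 with a gap of 2, and 30 to 50 with 1 library left out (41 without whole testes, 42 without rumen, 44 without frontal cortex, 46 without nucleated blood cells and 50 without mammary gland). Genes above the median numbered 3713 with the same-sum scaling, 3569 over all loci, 767 with a gap of 2 and 1443 with spans of their own, and genes below it 663 with the same-sum scaling and 198 with a gap of 2. Clusters numbered 11 with the same-sum scaling, 41 over all loci, 3 with a minimum of 5 FPKM, 3 with overlapping loci counted once, 2 with identifiers at 1 locus, 1 with spans of their own, and 6 to 10 with 1 library left out (10 without frontal cortex, 8 without ileum). The median span of highest genes, 32483 bases with shared spans included, was 12304 over all loci and 21449 with spans of their own. With the same-sum scaling the uterus was higher than abomasum in 4052 genes, than ileum in 3458 and than rumen in 7935, and lower than abomasum in 1672 and than rumen in 913. A 3-read floor of 0.406 FPKM on 1000 bases limits what can be called silent in the uterus, and 0.264 to 0.680 FPKM in the other libraries.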
